A study of Mus musculus with 14 samples.

Results

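The pathway described here runs from insulin and growth factor receptors through phosphoinositide 3-kinase (PI3K) and the kinase AKT to the FOXO transcription factors. The 8 genes belong to this pathway or, for Klf2 and S1pr1, lie downstream of FOXO1. They were chosen by name, with earlier results of these data known: Irs2, Pik3cd, Pik3r1, Akt1, Foxo1, Foxo3, Klf2 and S1pr1. All 8 were among the 12421 genes of the deposited count table, and all 8 passed the filter on low counts in every comparison. The table gives RNA-seq counts for 14 libraries, made from 8 tumours of a mouse model of T cell acute lymphoblastic leukaemia (T-ALL) and named VTL with the number of the tumour. The labels class each tumour by its relation to Lmo2, a transcriptional cofactor that acts as an oncogene in T cells.

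In this pathway, adaptor proteins such as IRS2 recruit PI3K to activated receptors, and PI3K makes a membrane lipid that activates AKT. Active AKT phosphorylates FOXO proteins, which keeps them out of the nucleus, and nuclear FOXO factors switch on genes of quiescence, lymphocyte trafficking and the pathway itself. In T cells FOXO1 is known to drive Klf2 and, through it, S1pr1, the receptor that lets lymphocytes leave lymphoid organs. The mRNA levels given here do not measure the phosphorylation or location of any of these proteins.

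The evolving class with doxycycline (Dox) held VTL-153, VTL-21 and VTL-25, and so did the evolving class without Dox. The independent class with Dox held VTL-33, VTL-44 and VTL-81, and so did the independent class without Dox. The dependent class held VTL-24 and VTL-19, both without Dox, with dependent tumours on Dox not analysed here. Per the labels, thymocytes were first placed in irradiated C57BL/6-Ly5.1;FVB F1 mice, and the leukaemias that arose were frozen and passed into C57BL/6-Rag1-/- hosts, which lack mature T and B cells of their own. Donor cells carrying both CD45.1 and CD45.2 were sorted from the spleen of these hosts, and Dox, where given, came in food pellets at 600 mg/kg. Whether the 2 libraries of a tumour came from the same host is not given in the sources used here, nor are the promoter that drives the transgene and the number of hosts per tumour. For the Dox responses, p-values measure the spread of the change with Dox over the paired tumours, pooled over both classes. For the class comparisons, they measure the spread between tumours of the same class. Differences between hosts, where present, are part of either spread.

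Levels are in CPM, the counts of a gene scaled to a common library size. Lmo2 stood at 0.198 to 3.24 CPM in evolving tumours given Dox, against 303 to 708 CPM when Dox was not given. It stood at 1.32 to 8.46 CPM with Dox against 9.28 to 600.3 CPM without Dox in the independent tumours, and the independent tumours VTL-44 and VTL-81 had only 9.28 and 27.2 CPM without Dox. Library totals ran from 18214415 to 24048281 counts. All 8 T cell markers were detected in every library, with summed levels of 2988 to 5157 CPM. The pairing of VTL-25 is uncertain: its leading T cell receptor beta segment was Trbv5 with Dox and Trbv24 without Dox. Each of the other 5 paired tumours had the same leading segment in both libraries. In VTL-153, VTL-21 and VTL-33 that segment was Trbv24 alike, so it cannot tell these tumours apart or check their pairing. The next segment was the same in both libraries of VTL-153 (Trbv13-1) and of VTL-33 (Trbv13-2). In VTL-21 it was Trbv13-2 with Dox (7.47 CPM) and Trbv13-1 without Dox (39.6 CPM). Every evolving library without Dox had Trbv24 followed by Trbv13-1. VTL-153 and VTL-25 were also much alike without Dox. Only 3 genes exceeded 20 CPM in one of these libraries while falling under 0.5 CPM in its counterpart, and every other pairing of tumours without Dox had 21 to 130 such genes. The main results are therefore also given without each of these tumours.

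The promoters of the 2 members that passed the test with Dox, Irs2 and Foxo1, are shown here because FOXO factors are known to act on the Irs2 promoter in liver. The sequences are RefSeq promoters of build GRCm38.p6, each with 250 bases before and 50 after the start of transcription, written 5′ to 3′ on the strand of the gene. Both strands were searched for the FOXO consensus GTAAACA, which is read on the other strand as TGTTTAC, and for the insulin response element CAAAACA, read on the other strand as TGTTTTG, and since these differ in letters no match of one can be a match of the other. Capitals mark a match.
Irs2 promoter, chr8:11008880-11009179, minus strand: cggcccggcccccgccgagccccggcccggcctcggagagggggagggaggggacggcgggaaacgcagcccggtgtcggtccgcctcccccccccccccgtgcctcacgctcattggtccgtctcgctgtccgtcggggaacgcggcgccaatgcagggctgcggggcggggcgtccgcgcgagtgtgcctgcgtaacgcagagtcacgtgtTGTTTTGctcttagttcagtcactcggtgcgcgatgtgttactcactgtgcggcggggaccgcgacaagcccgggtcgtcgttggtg
Foxo1 promoter, chr3:52268087-52268386, plus strand: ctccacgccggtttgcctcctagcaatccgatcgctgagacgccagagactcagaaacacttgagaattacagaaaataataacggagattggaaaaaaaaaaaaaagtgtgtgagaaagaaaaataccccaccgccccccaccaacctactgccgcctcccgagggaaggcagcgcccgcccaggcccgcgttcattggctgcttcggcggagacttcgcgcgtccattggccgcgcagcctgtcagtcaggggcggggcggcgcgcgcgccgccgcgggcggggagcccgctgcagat

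The Irs2 promoter held the insulin response element once, as TGTTTTG, starting at base 214 of the 300 shown. This is 37 bases before the start of transcription that the RefSeq promoter uses. That start differs from the gene model given below: the window lies wholly upstream of the Irs2 gene, whose 5′ end there is chr8:11008458. The Foxo1 window held neither motif. Of the 11 promoters found for 7 of the 8 members, 2 held a match, and the other one was an Akt1 promoter at chr12:112674835-112675134 with TGTTTAC starting at base 90. Among all 32851 promoters of the same length, 2064 (6.28%) held the insulin response element and 1199 (3.65%) the FOXO consensus. A match describes letters and does not show that a factor binds there.

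Irs2 (ENSMUSG00000038894, chr8:10984681-11008458 in mm10, minus strand) encodes insulin receptor substrate 2, the adaptor that couples the insulin and IGF1 receptors to PI3K. It showed the largest log2 change with Dox of the 8 genes in the evolving tumours, but not in the independent tumours, where S1pr1 had a larger estimate. With Dox it stood at 28.9, 23.1 and 15.0 CPM in evolving VTL-153, VTL-21 and VTL-25, against 1.75, 2.38 and 1.92 CPM without Dox in the same tumours. The groups did not overlap, and the lowest library with Dox was far above the highest without it. In the independent trio VTL-33, VTL-44 and VTL-81, Irs2 stood at 15.4, 12.5 and 13.7 CPM with Dox, against 10.3, 7.15 and 16.2 CPM without Dox. The dependent tumours were unlike each other, with 11.0 CPM in VTL-24 and 0.841 CPM in VTL-19. By group mean the order was evolving with Dox (22.3 ± 6.99 CPM), independent with Dox (13.9 ± 1.46 CPM), independent without Dox (11.2 ± 4.60 CPM), dependent (5.94 ± 7.21 CPM) and evolving without Dox (2.02 ± 0.327 CPM), each as mean ± SD over 3 tumours, or 2 for dependent. Each neighbour in that order overlapped the next in its range of libraries.

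Irs2 rose 10.7-fold with Dox in the evolving tumours, a log2 change of 3.42 (SE 0.35, adjusted p = 0.0127 by edgeR's quasi-likelihood test), higher in 3 of 3 tumours. With VTL-25 left out the change was 3.66 (adjusted p = 0.0487), and with VTL-153 left out it was 3.10 (adjusted p = 0.0447). Irs2 was 1 of 2 members called, with Foxo1, in a comparison in which 2.13% of the 12360 genes tested were called. In the independent tumours the log2 change was 0.38 (SE 0.32, adjusted p = 1.00), and no gene of the 12360 was called there (0.0%). The difference between the responses, evolving minus independent, was 3.04 for Irs2 (SE 0.47, adjusted p = 0.0846), which missed the threshold that 0.121% of all genes passed. DESeq2 called this difference (adjusted p = 6.77e-06), as it did for 4.44% of all genes, and limma voom, which called 0.558%, did not (adjusted p = 0.0574).

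Summed levels of markers of other cell types also differed between the evolving libraries with and without Dox, and their part in the results was not tested. The 3 of 9 B cell markers in the table (Ighm, Cd79b and Blnk) summed to 189, 6287 and 683.5 CPM with Dox in VTL-153, VTL-21 and VTL-25, against 143, 239 and 112 CPM without Dox, most of it Ighm. No marker of this list was at 0 in any library. Only Ighm was higher with Dox in all 3 tumours. Cd79b was lower with Dox in VTL-153 (0.0506 against 16.7 CPM) and VTL-21 (4.47 against 15.1 CPM). It was higher in VTL-25 (28.9 against 14.3 CPM). Blnk was lower in VTL-153 (0.911 against 1.95 CPM) and VTL-25 (0.149 against 1.80 CPM), and higher in VTL-21 (7.17 against 1.44 CPM). The 11 myeloid markers summed to 19.4, 182 and 24.1 CPM with Dox, against 157, 15.7 and 223 CPM without Dox, higher with Dox in VTL-21 and lower in the other 2. The 4 of 9 stromal and endothelial markers summed to 179.8, 197 and 270.1 CPM with Dox, against 154.9, 181 and 178 CPM without Dox. The sum was higher with Dox in all 3 tumours, most of it Pecam1, but the markers went different ways. Col1a1 was lower with Dox in all 3, and Col1a2 was higher in all 3. Pdgfrb was lower in VTL-153 (1.67 against 18.7 CPM) and higher in the other 2. The 7 of 9 erythroid markers summed to 0.911, 172.5 and 9.86 CPM with Dox, against 7.45, 10.3 and 14.95 CPM without Dox, with VTL-21 given Dox far above the rest. The 1 of 5 NK cell markers in the table stood at 0, 4.17 and 0.0495 CPM with Dox, against 0.9, 31.6 and 1.32 CPM without Dox, lower with Dox in all 3. In these bulk libraries, fewer cells of a type and less RNA per cell cannot be told apart.

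**Figure D1:**
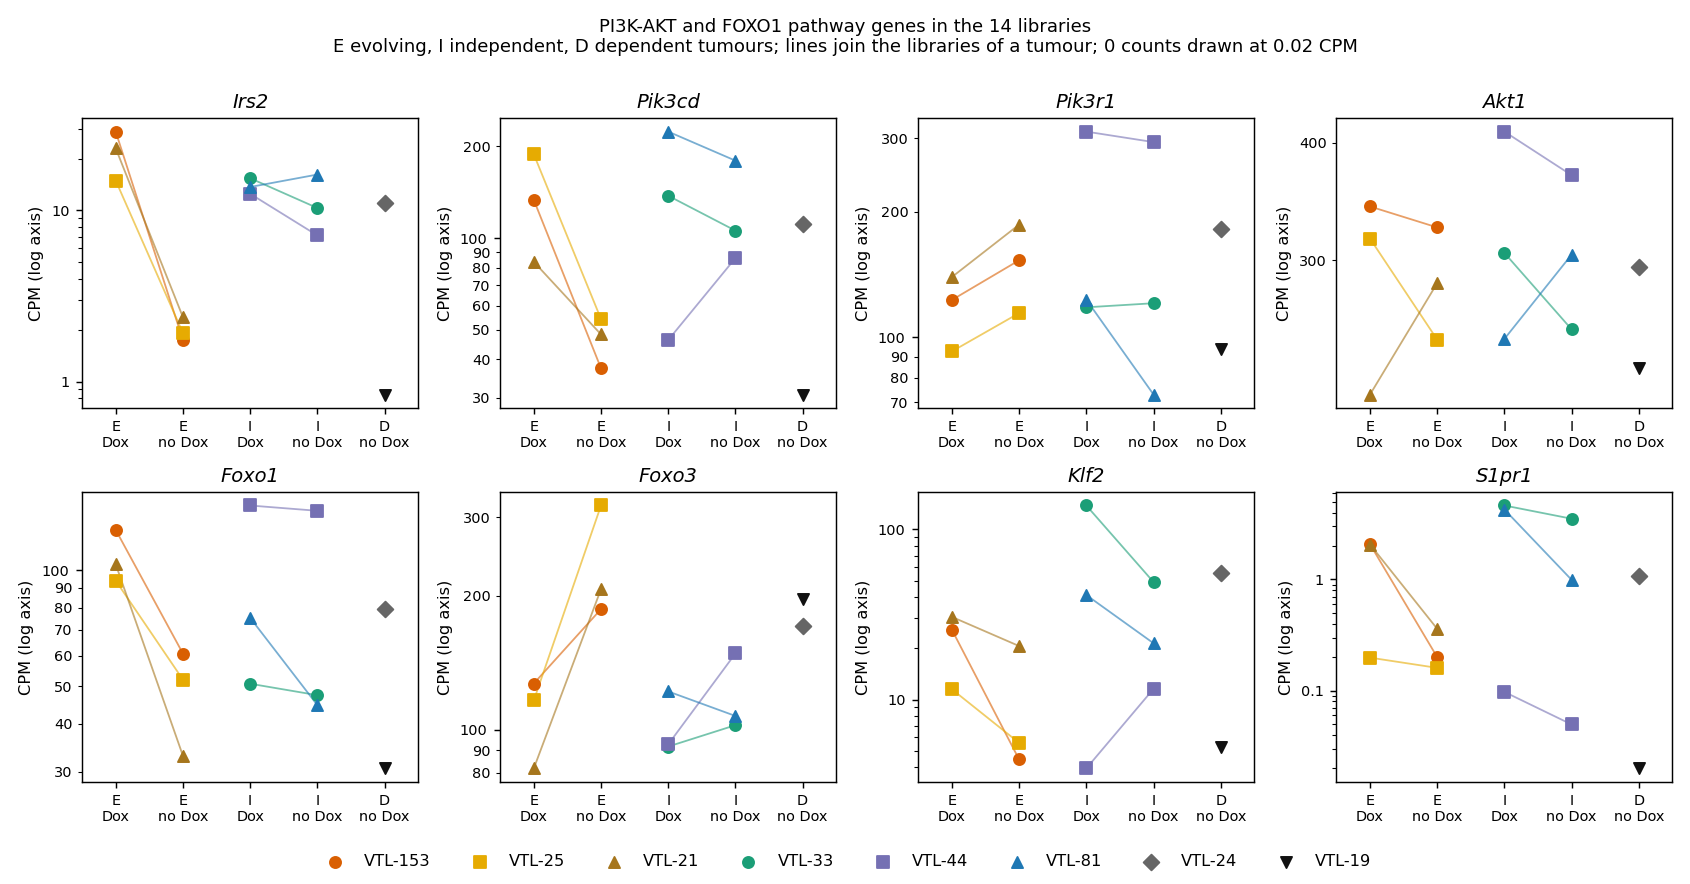
Level of each of the 8 genes in every library, in CPM on a log axis, with the groups along the horizontal axis and a line joining the libraries of a tumour. Irs2 stands between 15.0 and 28.9 CPM in the evolving tumours with Dox and at or below 2.38 CPM without Dox, while Akt1 stays between 216 and 411 CPM throughout.

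PI3K itself is a dimer of a catalytic and a regulatory subunit. Pik3cd (chr4:149649168-149702571, minus strand) encodes the catalytic subunit p110 delta, the form typical of leukocytes. It stood at 133, 83.6 and 188 CPM with Dox in VTL-153, VTL-21 and VTL-25, against 37.4, 48.3 and 54.3 CPM without Dox, and the groups did not overlap. In the independent trio VTL-33, VTL-44 and VTL-81 it stood at 138, 46.3 and 223.5 CPM with Dox, against 106, 86.0 and 179.5 CPM without Dox. VTL-44 was thus the lowest of the independent tumours in both states. VTL-24 and VTL-19, both dependent, had 111 and 30.7 CPM.

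The log2 change of Pik3cd with Dox in the evolving tumours was 1.48 (SE 0.32), higher in 3 of 3 tumours, and did not pass edgeR's test (adjusted p = 0.0763). It passed with DESeq2 (adjusted p = 8.06e-05), which called 10.6% of all genes, and with limma voom (adjusted p = 0.0435), which called 3.45%. It also passed with VTL-21 left out of the edgeR fit (1.79, adjusted p = 0.0443), the only tumour whose removal brought a call. Over all tumours left out in turn, the change ran from 1.28 to 1.79 and edgeR's adjusted p from 0.0443 to 0.252. The difference of responses was 1.53 (SE 0.45, adjusted p = 0.308), and again passed with DESeq2 (adjusted p = 0.0168). The make-up of the class I catalytic subunits, summed in CPM per kb of exon, differed between the libraries alongside: Pik3cd held 32.7 to 50.2% with Dox against 16.8 to 23.2% without Dox in the evolving tumours. Pik3cg, the gamma subunit that works downstream of G protein coupled receptors, held 22.0 to 36.2% with Dox against 42.6 to 51.8% without Dox, with a log2 change of its own level of −0.22 (SE 0.23, adjusted p = 0.719). In the independent tumours Pik3cd held 19.1 to 53.0% with Dox and 25.7 to 53.9% without Dox. These shares were not tested.

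**Figure D2:**
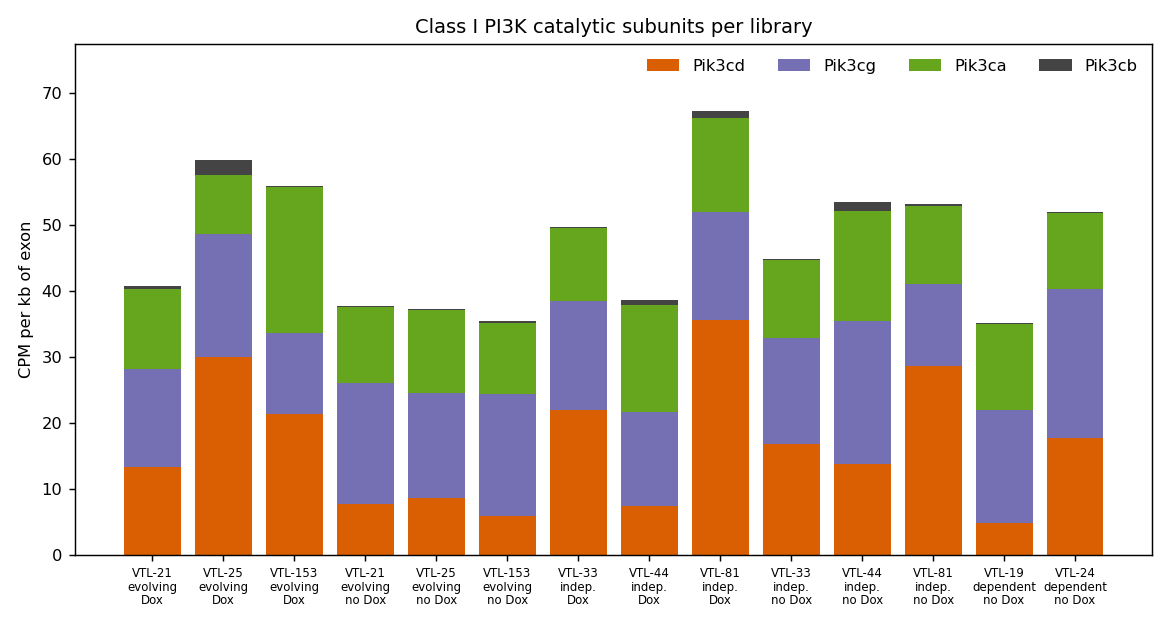
Stacked bars of the 4 class I PI3K catalytic subunits in each library, in CPM per kb of exon. The Pik3cd segment makes up 32.7 to 50.2% of the bar in the evolving tumours with Dox and 16.8 to 23.2% without Dox.

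Pik3r1 (chr13:101680563-101768217, minus strand) encodes p85 alpha, the regulatory subunit that stabilises and restrains the class IA catalytic subunits. It stood at 123, 139.6 and 92.6 CPM with Dox in VTL-153, VTL-21 and VTL-25, against 153.1, 186 and 114 CPM without Dox. Every evolving tumour was lower with Dox, by a similar ratio, but the groups overlapped and the log2 change of −0.35 (SE 0.17, adjusted p = 0.383, edgeR) did not pass. The independent level was 118, 311 and 123 CPM with Dox against 121, 294 and 73.0 CPM without Dox in VTL-33, VTL-44 and VTL-81. VTL-44 held the highest Pik3r1 level of the 8 tumours. VTL-24 and VTL-19, both dependent, had 182 and 93.9 CPM.

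Akt1 (chr12:112653821-112674884, minus strand), the kinase at the centre of the pathway, was the steadiest of the 8. It stood at 342, 216 and 316 CPM with Dox in VTL-153, VTL-21 and VTL-25, against 325, 284 and 247 CPM without Dox. The independent tumours VTL-33, VTL-44 and VTL-81 had 305, 411 and 247.5 CPM with Dox, against 253, 369 and 304 CPM without Dox, and VTL-24 and VTL-19, both dependent, had 295 and 230.5 CPM. All groups overlapped. The log2 change with Dox in the evolving tumours was 0.01 (SE 0.19, adjusted p = 0.983, edgeR), and the difference of responses was −0.03 (SE 0.26, adjusted p = 0.994). Akt1 held 75.8 to 86.1% of the summed level of the AKT genes, in CPM per kb, in every library. Per kb it was also the highest of the 8 genes in every group, with a mean of 71.1 CPM per kb in the evolving tumours with Dox and 69.6 CPM per kb without Dox.

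Per kb of exon, the order of the 8 genes in the evolving tumours with Dox was Akt1, Pik3cd (21.6 CPM per kb), Foxo3 (14.3), Foxo1 (12.5), Klf2 (12.2), Pik3r1 (11.8), Irs2 (3.53) and S1pr1 (0.474). In the same tumours without Dox it was Akt1, Foxo3 (31.3), Pik3r1 (15.0), Pik3cd (7.45), Foxo1 (5.61), Klf2 (5.53), Irs2 (0.319) and S1pr1 (0.0788). With Dox, Pik3cd, Foxo3, Foxo1, Klf2 and Pik3r1 each overlapped the next in that order in their range of libraries, so their order was not resolved. Without Dox the same held for Pik3cd, Foxo1 and Klf2.

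**Figure D3:**
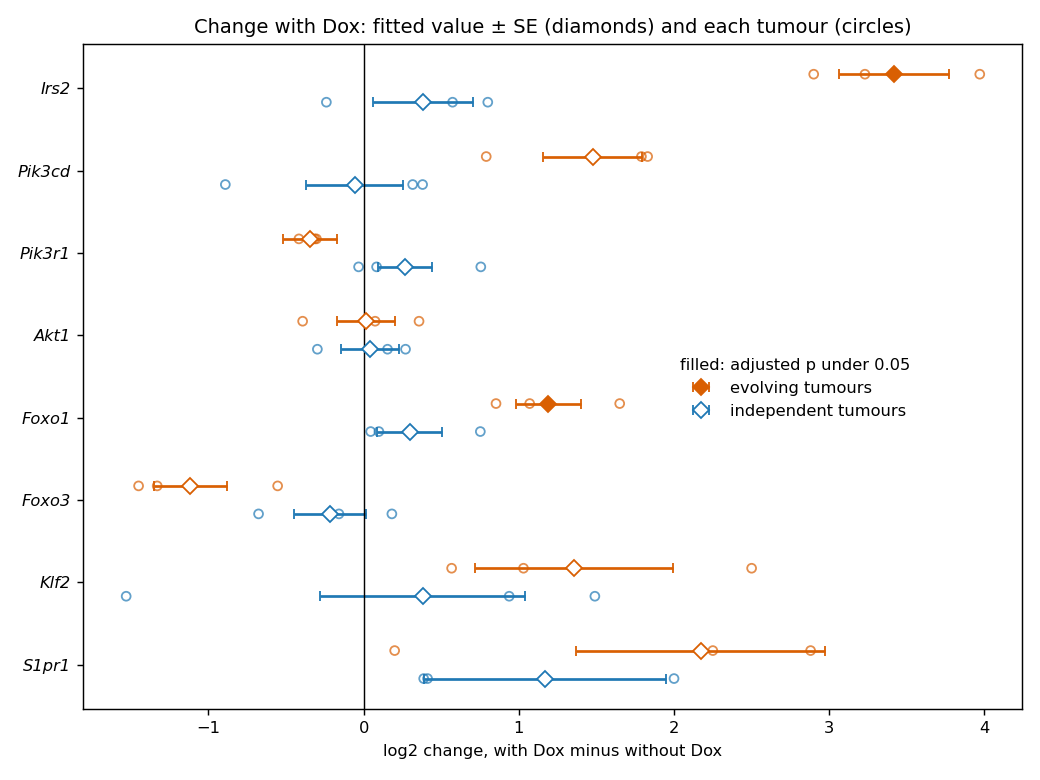
Log2 change with Dox of each gene (horizontal axis), as the fitted value ± SE (diamonds) and in each tumour (circles), for evolving tumours above independent tumours. In the evolving tumours Irs2 lies at 3.42 and Foxo1 at 1.19, the only filled diamonds, and Foxo3 lies at −1.12.

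Of the FOXO genes, Foxo1 passed the test with Dox in the evolving tumours, and Foxo3 and Foxo4 did not. Foxo1 (ENSMUSG00000044167, chr3:52268336-52353221, plus strand), the main FOXO gene of T cell development and homing, stood at 127, 104 and 94.0 CPM with Dox in VTL-153, VTL-21 and VTL-25, against 60.8, 32.99 and 52.0 CPM without Dox. Every library with Dox was above every library without it. In the independent trio VTL-33, VTL-44 and VTL-81 it stood at 50.8, 147 and 75.3 CPM with Dox, against 47.4, 143 and 44.7 CPM without Dox. VTL-44 held the highest level of the 8 tumours in both states. VTL-24 and VTL-19, both dependent, had 79.4 and 30.6 CPM.

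Foxo1 rose 2.28-fold with Dox in the evolving tumours, a log2 change of 1.19 (SE 0.21, adjusted p = 0.0442 by edgeR's quasi-likelihood test), higher in 3 of 3 tumours. The call was narrow: it was lost with each of the 6 paired tumours left out, with log2 changes of 0.94 to 1.36 and adjusted p of 0.0518 to 0.113. Without the tumour block the change was 1.16 (adjusted p = 0.385), while DESeq2 (adjusted p = 2.9e-05) and limma voom (adjusted p = 0.027) kept it. The change in the independent tumours was 0.30 (SE 0.21, adjusted p = 1.00), and the difference of responses was 0.89 (SE 0.30, adjusted p = 0.37).

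Foxo3 (chr10:42181841-42276755, minus strand), a related factor with overlapping targets, had lower levels with Dox in the evolving tumours. It stood at 127, 81.9 and 116 CPM with Dox in VTL-153, VTL-21 and VTL-25, against 186.5, 207 and 318.5 CPM without Dox, and these groups did not overlap. The log2 change was −1.12 (SE 0.23), lower in 3 of 3 tumours, and missed the threshold of edgeR's test (adjusted p = 0.07). It passed with DESeq2 (adjusted p = 0.000175) and limma voom (adjusted p = 0.0423). With each tumour left out of the edgeR fit in turn it never passed, at log2 changes of −1.41 to −0.94 and adjusted p of 0.0581 to 0.229. In the independent trio VTL-33, VTL-44 and VTL-81 Foxo3 stood at 91.7, 92.8 and 122 CPM with Dox, against 102, 148 and 107 CPM without Dox. VTL-24 and VTL-19, both dependent, had 171 and 196.5 CPM. The difference of responses was −0.90 (SE 0.33, adjusted p = 0.43).

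The ratio of Foxo1 to Foxo3, both in CPM per kb, was 0.876, 1.11 and 0.706 with Dox in VTL-153, VTL-21 and VTL-25, against 0.285, 0.139 and 0.143 without Dox. In VTL-33, VTL-44 and VTL-81 it was 0.484, 1.39 and 0.54 with Dox, against 0.405, 0.841 and 0.363 without Dox, and in dependent VTL-24 and VTL-19 it was 0.406 and 0.136. The ratio was higher with Dox in all 6 paired tumours, and only the evolving groups were free of overlap. Foxo3 held 25.4 to 37.2% of the summed FOXO level in evolving tumours with Dox, against 56.6 to 68.6% without Dox, and Foxo1 held 26.3 to 28.1% against 8.04 to 16.1%. The rest was Foxo4, whose own log2 change was 0.47 (SE 0.17, adjusted p = 0.238). The ratio and these shares were not tested.

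**Figure D4:**
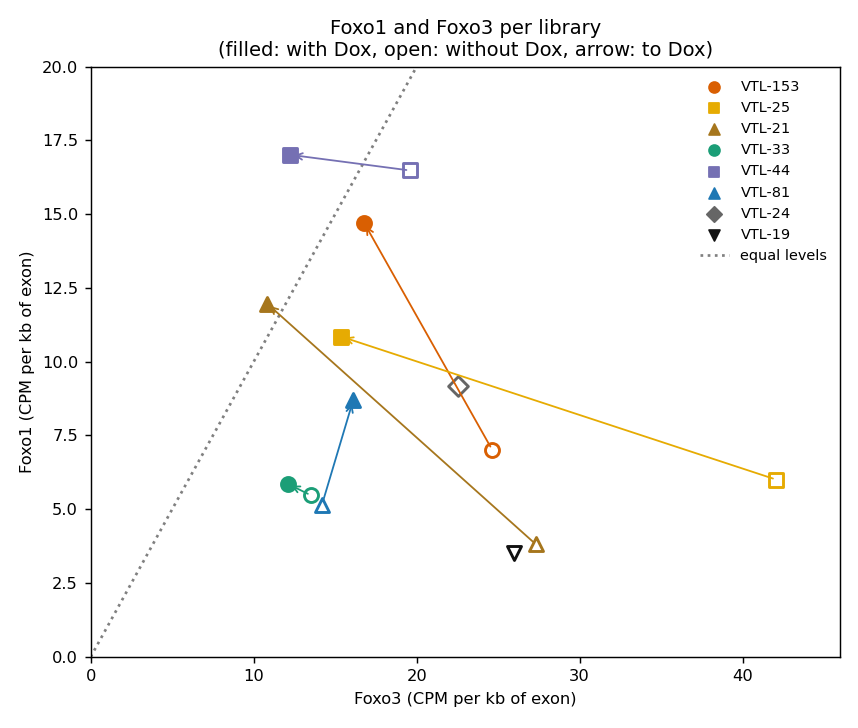
Foxo1 against Foxo3 in every library, both in CPM per kb of exon, with arrows from the library without Dox to the one with Dox and a dotted line where the levels are equal. The arrows of the evolving tumours run up and to the left, with ratios of 0.706 to 1.11 with Dox against 0.139 to 0.285 without Dox.

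Klf2 (chr8:72319033-72321656, plus strand), the FOXO1 target that controls T cell trafficking, stood at 25.7, 30.6 and 11.5 CPM with Dox in VTL-153, VTL-21 and VTL-25, against 4.45, 20.6 and 5.57 CPM without Dox. Each evolving tumour was higher with Dox, but the groups overlapped, and the log2 change of 1.36 (SE 0.64) did not pass edgeR's test (adjusted p = 0.361). The independent tumours were widely spread, with 138, 3.95 and 41.1 CPM with Dox in VTL-33, VTL-44 and VTL-81, against 49.0, 11.6 and 21.4 CPM without Dox. Klf2 was lower with Dox in VTL-44 and higher in the other 2. VTL-24 and VTL-19, both dependent, had 55.7 and 5.26 CPM. The difference of responses was 0.98 (SE 0.91, adjusted p = 0.862).

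S1pr1 (chr3:115710433-115715072, minus strand), which encodes the sphingosine 1-phosphate receptor of lymphocyte exit, was close to the detection limit, with 0 to 105 raw counts per library. It stood at 2.07, 2.06 and 0.198 CPM with Dox in VTL-153, VTL-21 and VTL-25, against 0.2, 0.36 and 0.16 CPM without Dox. The independent tumours VTL-33, VTL-44 and VTL-81 had 4.63, 0.0974 and 4.26 CPM with Dox, against 3.52, 0.0496 and 0.992 CPM without Dox. VTL-24 had 1.07 CPM and VTL-19 had 0 counts, which allows up to 0.158 CPM (3 counts, counting error only). In CPM S1pr1 was higher with Dox in 6 of 6 paired tumours, but in VTL-25 this came from library scaling alone, with 4 raw counts in each library, and in VTL-44 it rested on 2 raw counts with Dox against 1 without Dox. The log2 change was 2.17 (SE 0.80, adjusted p = 0.237, edgeR) in the evolving tumours, 1.17 (SE 0.78, adjusted p = 1.00) in the independent tumours, and the difference was 1.00 (SE 1.11, adjusted p = 0.891). S1pr1 held at most 12.2% of the summed S1P receptor level per kb.

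Over the 8 genes, 5 were higher with Dox in all 3 evolving tumours (Irs2, Foxo1, Pik3cd, Klf2 and S1pr1) where 17.3% of all genes were, and 2 were lower in all 3 (Foxo3 and Pik3r1) where 17.6% were. S1pr1 counts here only through library scaling in VTL-25, where both libraries had 4 raw counts. Groups did not overlap for 3 higher members (background 8.77%) and for 1 lower member (background 10.2%). Among independent tumours 2 members, Foxo1 and S1pr1, were higher with Dox in all 3 tumours, beside 8.71% of all genes, with S1pr1 resting in VTL-44 on 2 raw counts against 1, and none was lower in all 3, beside 8.31%. All 8 overlapped there. For the difference of responses, the change of every evolving tumour was above that of every independent tumour for Irs2, Foxo1 and Pik3cd (background 7.39%) and below it for Pik3r1 (background 7.72%). No member was called in the independent tumours, where DESeq2 and limma voom also called 0 genes and 87 genes (0.704%) had an unadjusted p under 0.05. The smallest p-values there were those of Pik3r1 (log2 change 0.27, SE 0.17), S1pr1 and Foxo1. Both responses were measured in different tumours and share no library. Because the 8 genes were chosen with earlier results of these data known, their counts beside a background are descriptions and do not measure enrichment.

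Between classes without Dox, no member passed the test in any of the 3 comparisons. In independent against evolving tumours, 0.259% of 12348 genes were called. Foxo3 was at a log2 difference of −0.99 (SE 0.24, adjusted p = 0.123), Irs2 at 2.47 (SE 0.84, adjusted p = 0.221) and Pik3cd at 1.41 (SE 0.48, adjusted p = 0.226) in edgeR's test. These 3 genes did not overlap between the groups, as Irs2 and Pik3cd were higher (background 11.4%) and Foxo3 lower (background 12.1%) in the independent tumours, and DESeq2, which called 8.65% of all genes, called all 3 (adjusted p = 0.00424 for Foxo3, 0.0355 for Irs2 and 0.0396 for Pik3cd). They use the same evolving libraries without Dox as the Dox response does, so the values stand side by side and do not support each other.

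In independent against dependent tumours, 0.0972% of genes were called, and the members with the smallest p were Foxo3 (−0.62, SE 0.27, adjusted p = 0.382, edgeR), Pik3cd (0.81, SE 0.54, adjusted p = 0.571) and Akt1 (0.23, SE 0.21, adjusted p = 0.682). Foxo3 was lower in the independent tumours with no overlap (background 13.2%). In evolving against dependent tumours, edgeR called 0 genes (0.0%), with 419 (3.39%) at an unadjusted p under 0.05, 64 by DESeq2 and 0 by limma voom. Irs2 (−1.56, SE 0.88), Klf2 (−1.58, SE 1.07) and Foxo3 (0.37, SE 0.27) came closest there, all with an adjusted p of 1.00. The direction for Irs2 and Klf2 rested on VTL-24: without it they were at 1.26 and 0.96. With Dox, independent against evolving, edgeR again called 0 of 12093 genes (0.0%), with 573 (4.74%) at an unadjusted p under 0.05, 94 by DESeq2 and 1 by limma voom. Irs2 was at −0.69 (SE 0.31), Pik3r1 at 0.64 (SE 0.42) and Klf2 at 1.43 (SE 1.08), each with an adjusted p of 0.974, and all 8 members overlapped.

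The pathway lists around these genes held 88 measured genes, 80 of them not members. With Dox in the evolving tumours, 1 of those 80 passed edgeR's test, beside 2.13% of all genes tested, a share near that background. It was Sgk1, a kinase related to AKT that is likewise activated by PI3K lipids and also phosphorylates FOXO factors. Sgk1 stood at 169, 92.6 and 71.1 CPM with Dox in VTL-153, VTL-21 and VTL-25, against 4.95, 11.4 and 2.52 CPM without Dox. It rose by a log2 change of 4.30 (SE 0.58, adjusted p = 0.0218), higher in 3 of 3 tumours. The call was lost without VTL-153 (3.87, adjusted p = 0.0728), without VTL-25 (4.04, adjusted p = 0.095) and without VTL-33 (4.29, adjusted p = 0.055). The independent tumours VTL-33, VTL-44 and VTL-81 had 57.3, 30.0 and 71.6 CPM with Dox, against 60.7, 47.9 and 27.9 CPM without Dox, and VTL-24 and VTL-19, both dependent, had 5.7 and 3.1 CPM. Sgk1 was thus lowest in the evolving libraries without Dox and in both dependent tumours, and every other library was at 27.9 CPM or above.

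The counts by role stand beside the same 2.13% of all genes called in either direction. The 11 receptors and adaptors tested had 1 gene that rose (Irs2) and a median log2 change of −0.033. The 13 PI3K subunits had none that passed, with 9 estimates above 0 and a median of 0.21. The 12 phosphatases and other inhibitors had none that passed, with 9 estimates below 0 and a median of −0.27. The 17 AKT and mTOR genes had 1 that rose (Sgk1) and a median of 0.013. The 24 FOXO target genes, which include Irs2, Klf2 and S1pr1, had 1 that rose (Irs2), 20 estimates above 0 and a median of 0.51. The 14 S1P and KLF genes had none that passed and a median of 0.26. Over all 12360 genes the median was −0.0022, with 6141 estimates above 0. No gene of these lists passed in any other comparison, and the FOXO target median was 0.19 in the independent tumours with Dox.

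**Figure D5:**
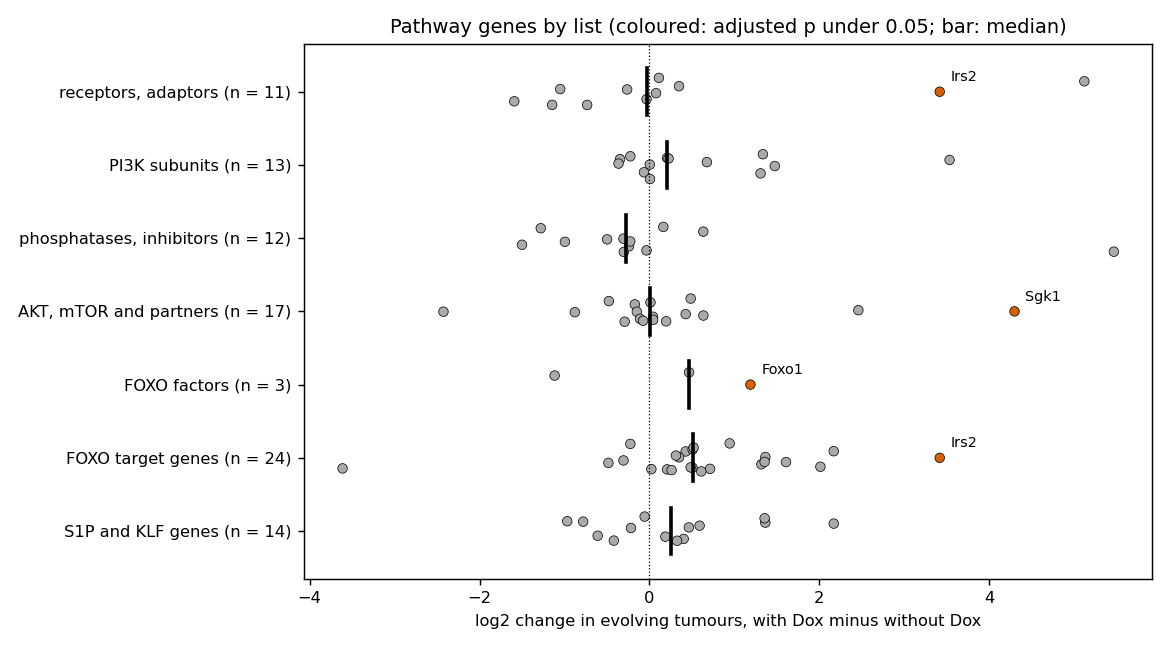
Log2 change with Dox in the evolving tumours of each measured gene of the pathway lists (points), with the median of each list as a bar and a dotted line at 0. Irs2, Sgk1 and Foxo1 are the 3 coloured genes past the threshold, and the FOXO target genes lie mostly to the right of 0, at a median of 0.51.

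Several other pathway genes had large estimates that did not pass, and were picked for description after their values were seen. Inpp4b, a lipid phosphatase, was at 9.18 ± 9.71 CPM with Dox against 0.168 ± 0.128 CPM without Dox in evolving tumours (SD, n = 3; log2 change 5.47, SE 1.08, adjusted p = 0.0635, edgeR). Pik3c2a, a class II PI3K, was at 28.8 ± 10.7 CPM with Dox against 3.54 ± 3.87 CPM without Dox (3.54, SE 0.78, adjusted p = 0.0789). Il7r, the interleukin 7 receptor and a FOXO1 target in T cells, ran against most of its list. It stood at 8.8, 11.9 and 1.49 CPM with Dox in VTL-153, VTL-21 and VTL-25, against 60.3, 84.7 and 70.8 CPM without Dox (−3.61, SE 0.98, adjusted p = 0.132). Other FOXO1 targets in lymphocytes were Ccr7, at 2.01 (SE 0.97, adjusted p = 0.368), and Rag1, at 1.32 (SE 0.53, adjusted p = 0.284).

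By root mean square difference of log2 CPM, each gene centred on its own mean over the 14 libraries, the genes most like Irs2 were Poll (0.671), Irf4 (0.703), Ier5 (0.733), Nr4a1 (0.748) and Zfp36 (0.768), where Irs2 itself varied by 1.49 around its mean. Irf4, a lymphoid transcription factor, averaged 37.2 CPM with Dox and 5.4 CPM without Dox in evolving tumours, and 26.8 CPM with Dox and 29.3 CPM without Dox in the independent tumours. The genes most like Foxo1, which varied by 0.72, were Map4 (0.34), Lipa (0.347), Tulp4 (0.356), Kif1b (0.362) and Csrnp1 (0.373). These are descriptions over libraries that share tumours.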

How the data were processed

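Raw counts per gene, with a column for each library, were used as the authors deposited them: whole numbers for 12421 genes, not normalised, and every gene reached 1 CPM in 2 or more libraries. The submitters' processing notes name STAR 2.5.2b, featureCounts and mm10. The annotation and the strand setting are not given in the sources used here, so reads of overlapping or antisense genes cannot be told apart. A further 42 columns of per-sample values in the table were not used here. RNA had an integrity number over 8 and a NEBNext kit was used, per the labels' protocols.

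The main test was edgeR 4.0.16 (R 4.3.3) with TMM factors, filterByExpr at a minimum count of 10, quasi-likelihood fits (robust) and p-values adjusted by Benjamini-Hochberg over all genes tested, at a threshold of 0.05. An adjusted p with no tool named beside it is edgeR's. A single fit to the 12 libraries of the 6 paired tumours had a block for tumour and separate Dox terms by class. Classes were compared over the 8 libraries that had no Dox, or over the 6 that had it. Dox changes are with minus without, and a class difference subtracts the class named second. Standard errors were derived from the F statistic and are approximate. Levels are CPM with TMM-scaled library sizes, and levels per kb use the exon length of GENCODE M21. Changes per tumour use log2 CPM with a prior count of 2. The edgeR, limma voom and DESeq2 fits were tested on simulated counts that held no differences between tumours, with a single comparison per set of libraries. Other steps were not tested on simulated data.

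Pairing rests on the tumour number in the titles and on the series design, which speaks of tumours before and after Dox. The deviations of paired libraries from their group means correlated across genes at 0.181 in VTL-153, 0.00841 in VTL-25, 0.133 in VTL-21, 0.64 in VTL-44, 0.711 in VTL-33 and 0.546 in VTL-81. Every evolving tumour was thus below every independent tumour, and these values give less support to the pairing in the evolving class.

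The alternatives tried were DESeq2 1.42.0, limma voom (limma 3.58.1), RLE size factors, other count filters, fits that are not robust, no tumour block, and each tumour left out. The members, the pathway and marker lists and the tests were chosen with earlier results of these data known. By the naming rule, the text gives all 8 members for the evolving Dox response and the difference of responses, the members past the threshold or the 3 with the smallest p elsewhere, up to 4 genes past the threshold from each pathway list, and the 5 genes most like Irs2 and Foxo1. Other genes are named as chosen after their values were seen.

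The table held 3 of 9 B cell, 11 of 11 myeloid, 4 of 9 stromal and endothelial, 7 of 9 erythroid and 1 of 5 NK cell markers. Over the 14 libraries the stromal and endothelial list summed to 142 to 902 CPM and the erythroid list to 0.911 to 173 CPM. The NK cell marker ran from 0 to 31.6 CPM and the B cell list from 30.8 to 6287 CPM. The myeloid list ran from 15.7 to 1979 CPM, with its highest sums in independent tumours. VTL-81 had 1979 CPM with Dox against 175.8 CPM without Dox, and VTL-44 had 776.1 against 1432 CPM. In VTL-33 the myeloid sum was 167.8 CPM with Dox against 67.2 CPM without Dox. The part of these levels in the results was not tested.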

Additional observations from a re-analysis of the deposited data

How the results depend on the processing

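The number of genes called moved more than the members' estimates. With Dox in the evolving tumours edgeR called 263 genes, DESeq2 1314, limma voom 426, edgeR without the tumour block 73, and edgeR with a tumour left out 49 to 347. For the difference of responses the counts were 15 in edgeR, 549 in DESeq2, 69 in limma voom, 1 without the block and 0 to 58 with a tumour left out. Independent against evolving tumours without Dox gave 32 in edgeR, 1068 in DESeq2, 7 in limma voom and 3 to 144 with a tumour left out. Independent against dependent tumours gave 12 in edgeR, 791 in DESeq2, 0 in limma voom and 2 to 73 with a tumour left out. Evolving against dependent tumours gave 0 in edgeR, 64 in DESeq2 and 0 to 1 with a tumour left out, and independent against evolving tumours with Dox gave 0 in edgeR, 94 in DESeq2, 1 in limma voom and 0 to 4 with a tumour left out. The causes of these differences were not tested.

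Irs2 stayed past the threshold in the evolving tumours under all 13 alternatives run, at log2 changes of 3.10 to 3.66. Of the 409 recomputed changes of members, 382 kept direction and side of the threshold, 10 gained the call, 7 lost it (all of them Foxo1 in the evolving tumours, at 1.16 without the block and 0.94 to 1.36 with a tumour left out) and 10 changed sign. None of the changes of sign was past the threshold: Akt1 ran from −0.16 to 0.19 in the evolving tumours and from −0.20 to 0.16 for the difference of responses with a tumour left out. Klf2 was at −0.015 for the difference of responses without the block, at 0.96 in evolving against dependent tumours without VTL-24 (range −2.62 to 0.96), and at −0.037 in independent against evolving tumours with Dox without VTL-33 (range −0.037 to 2.01). Irs2 was at 1.26 in evolving against dependent tumours without VTL-24 (range −2.45 to 1.26). The tumour block changed no other member's call. Groups of 3 or 2 tumours limit every comparison, and the 0 to 105 counts of S1pr1 limit its fold changes.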
